A study of Mus musculus with 8 samples.

Results

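The genes described here are 8 markers of the epicardium and of the proepicardium, *Wt1*, *Tcf21*, *Upk3b*, *Upk1b*, *Msln*, *Krt19*, *Bnc1* and *Podxl*. They were found by gene symbol in a table of 53465 genes, and all 8 were present. The table came from RNA-seq of polyadenylated RNA from heart ventricles of mouse embryos at embryonic day 9.5 (E9.5), with 4 wild-type (WT) samples and 4 Nrg-1flox;Tie2-Cre samples, called mutant below. In the mutant, a floxed *Nrg1* gene is deleted by Cre recombinase under the *Tie2* promoter, which is active in endothelial cells, including the endocardium, and is known to be active in blood lineages as well. *Nrg1* encodes neuregulin-1, a growth factor made in the endocardium and received by the myocardium. Zygosity, sex, litter, the number of embryos in a sample and whether the WT embryos carried either allele are not given in the labels, and nothing there says that the samples of a genotype came from separate embryos, so the p-values measure the spread between these samples.

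The proepicardium is a transient cluster of mesothelial cells on the septum transversum, at the venous pole of the heart tube. Around this stage its cells move to the surface of the ventricles, where they attach and spread to form the epicardium, the outer layer of the heart. Later the epicardium gives rise to fibroblasts and mural cells and sends growth signals to the compact myocardium. In a ventricle at E9.5 the epicardium is still forming, so its markers come from few cells among many cardiomyocytes. In RNA from whole ventricles, fewer cells of a type and less RNA per cell cannot be told apart.

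The libraries held 11852372 to 14360323 counts in WT and 12430368 to 14223860 in mutants. *Nrg1*, the targeted gene, was at 156, 131, 121 and 173 counts in WT samples 1 to 4 and at 61, 59, 71 and 72 in mutant samples 1 to 4, a log2 fold change of -1.07 (SE 0.14, adjusted p = 0.00268). As a check of the tissue, 12 cardiomyocyte genes summed to between 35941 and 40414 CPM (counts scaled to the effective size of the library) in every sample, and 7 sinus venosus and atrial genes summed to 195 to 303 CPM. Of these *Sln* had 2 to 6 counts, *Hcn4* 1010 to 1552 and *Nr2f2* 297 to 759 (*Sln* and *Nr2f2* were named after their values were seen), so genes of the venous pole were present in every sample. Mutant sample 2 had the highest sum of these 7 genes and the most counts of *Hcn4*, *Nr2f2*, *Kcna5* and *Shox2*, the last at 220 against 21 to 136 in the other samples. It was not the highest for *Isl1*, *Tbx5* and *Sln*, at 72, 1189 and 2 counts against up to 125, 1255 and 6 in other samples. *Kcna5*, *Shox2* and *Isl1* were also named after their values were seen. Hemoglobin genes took 0.671% to 0.799% of counts in WT and 6.26%, 1.93%, 3.80% and 3.89% in mutant samples 1 to 4, mutant sample 1 being the highest and mutant sample 2 the lowest of the mutants. Of 14451 genes tested with edgeR's quasi-likelihood test and Benjamini-Hochberg adjustment over all of them, 8.62% differed between genotypes at an adjusted p under 0.05, 5.11% being higher and 3.5% lower in mutants.

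Promoter sequences are shown for *Bnc1*, *Tcf21* and *Upk3b*, the 3 of the 8 markers with a window in the RefSeq promoter table (build GRCm38.p6). Each line gives up to 250 bases before the annotated start, 5′ to 3′ on the strand of the gene, and capitals mark a match to any of the 8 motifs searched on both strands. The windows are chr7:81992300-81992549 on the minus strand for *Bnc1*, chr10:22820175-22820393 on the minus strand for *Tcf21*, and chr5:136038246-136038495 on the plus strand for *Upk3b*. For *Tcf21* the last 31 bases were left out because they lie inside the gene in the GENCODE annotation.
Bnc1: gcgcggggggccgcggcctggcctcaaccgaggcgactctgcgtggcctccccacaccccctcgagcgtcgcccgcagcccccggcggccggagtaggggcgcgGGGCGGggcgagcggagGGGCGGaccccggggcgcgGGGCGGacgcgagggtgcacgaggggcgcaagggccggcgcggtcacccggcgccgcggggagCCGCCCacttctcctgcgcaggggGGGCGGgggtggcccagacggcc
Tcf21: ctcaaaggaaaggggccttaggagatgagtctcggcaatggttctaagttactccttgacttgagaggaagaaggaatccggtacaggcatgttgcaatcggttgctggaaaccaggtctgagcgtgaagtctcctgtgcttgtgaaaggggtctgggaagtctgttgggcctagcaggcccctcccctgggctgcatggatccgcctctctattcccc
Upk3b: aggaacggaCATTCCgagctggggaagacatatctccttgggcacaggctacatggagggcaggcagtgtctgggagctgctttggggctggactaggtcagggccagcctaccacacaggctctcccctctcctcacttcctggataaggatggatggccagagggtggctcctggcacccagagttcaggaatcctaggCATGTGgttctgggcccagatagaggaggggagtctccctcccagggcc

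The windows had little in common in these letters. Over the full 250 bases, GC content was 83.6% for *Bnc1*, 52.4% for *Tcf21* and 60.8% for *Upk3b*, beside a median of 52.4% over 32851 windows of the same length. *Bnc1* held 5 matches to the GC box GGGCGG, a motif found in 32.7% of all windows. *Upk3b* held 1 match to the TEAD motif CATTCC, found in 12.6% of windows, and 1 to the E-box CANNTG, found in 66.2%. *Tcf21* held 1 match to the GATA motif AGATAA, found in 9.99% of windows, which starts at base -31 from the RefSeq start and therefore falls in the stretch left out above. The TATA box TATAAA (12.4% of windows), the CCAAT box CCAAT (33.8%), GCGGGGGCG (2.6%) and GCGTGGGAG (0.4%), both sequences that WT1 is known to bind, were not found in the 3 windows. No match overlapped another in these windows. Such matches describe the sequence and are not evidence of a bound factor.

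*Wt1* rose in mutants, and it was the only 1 of the 8 markers that passed the test. *Krt19* had the largest fold difference of the markers tested and did not pass, and its mutant sample 1 stood far above the rest. *Tcf21*, *Upk3b*, *Upk1b* and *Bnc1* had higher means in mutants but overlapped between genotypes, *Podxl* had a lower mean, and *Msln* was near the limit of detection.

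**Figure D1:**
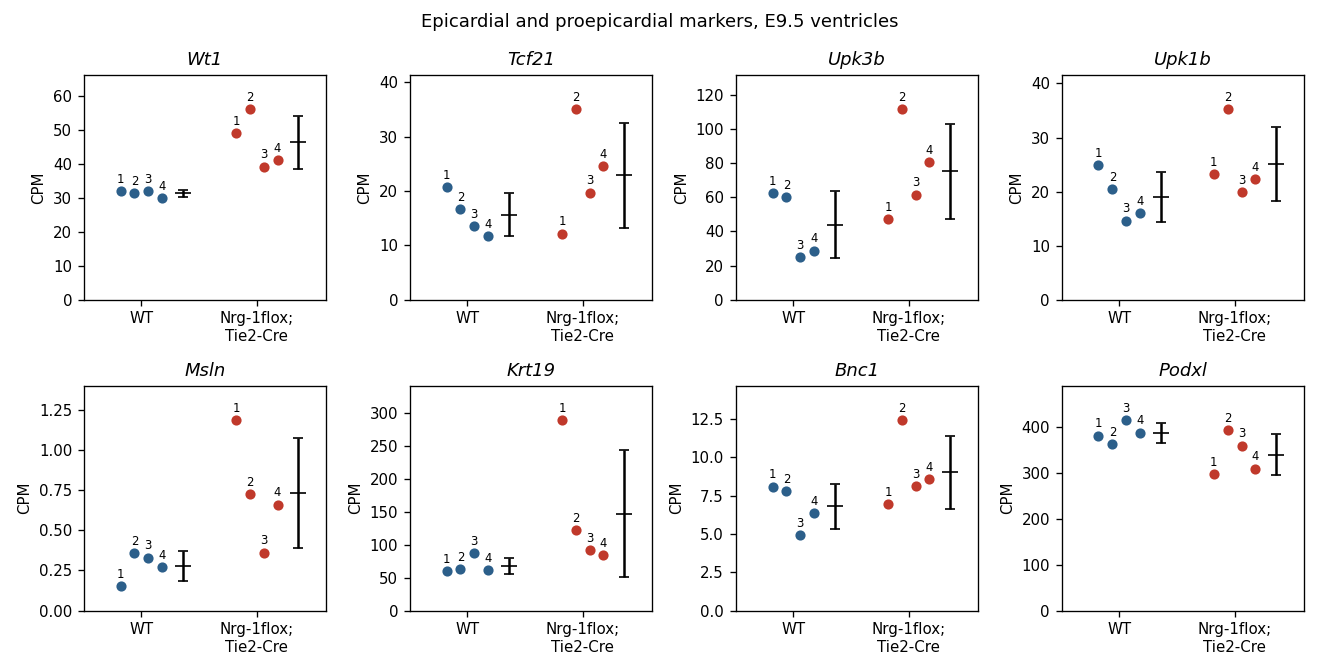
CPM of the 8 markers in each sample (vertical axes start at 0 and differ in scale), with points numbered by sample and bars showing the mean and SD of 4 samples per genotype. *Wt1* in mutants lies above every WT sample, mutant sample 2 is the highest point for *Tcf21*, *Upk3b*, *Upk1b* and *Bnc1*, and mutant sample 1 is the highest for *Krt19* and *Msln*.

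All 8 markers are annotated as protein-coding. The transcription factors among them are *Wt1*, *Tcf21* and *Bnc1*. *Wt1* (chr2:105126529-105173616, plus strand, in GRCm38 as are all gene positions here) encodes a zinc finger factor that the epicardium needs to form and to release mesenchymal cells. It was at 32.1, 31.4, 32.1 and 29.9 CPM in WT samples 1 to 4 and at 49.2, 56.3, 39.3 and 41.2 CPM in mutant samples 1 to 4. The WT samples were close to each other, the mutant samples were spread more widely, and the groups did not overlap, which was also so, with mutants higher, for 9.52% of the genes tested. The means were 31.4 ± 1.05 CPM in WT and 46.5 ± 7.80 in mutants (SD, n = 4 each), a 1.48-fold difference (log2 fold change 0.57, SE 0.11, 95% interval 0.33 to 0.81, adjusted p = 0.0126). *Wt1* passed the test under each of the 10 other settings tried, with log2 fold changes from 0.55 to 0.64 and adjusted p from 1.21e-04 to 0.0301. It also passed with each sample left out in turn, with log2 fold changes from 0.47 to 0.64 and adjusted p from 0.00925 to 0.0498.

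*Tcf21* (chr10:22817281-22820174, minus strand) encodes a basic helix-loop-helix factor of epicardial cells that become fibroblasts. It was at 20.7, 16.7, 13.5 and 11.6 CPM in WT samples 1 to 4 and at 12.1, 35.0, 19.7 and 24.6 CPM in mutant samples 1 to 4. Mutant sample 1 was lower than 3 of the WT samples and mutant sample 2 was higher than every other sample, so the groups overlapped. The means, 15.6 ± 3.98 in WT and 22.9 ± 9.60 in mutants, gave a log2 fold change of 0.55 (SE 0.29, interval -0.09 to 1.20, adjusted p = 0.271). Without mutant sample 1 the log2 fold change was 0.76 and passed (adjusted p = 0.0364), and over the 8 fits that left out a sample it ranged from 0.28 to 0.76, with adjusted p from 0.0364 to 0.547. The lowest value, 0.28, came without mutant sample 2.

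*Bnc1* (chr7:81966672-81992292, minus strand) encodes basonuclin 1, a zinc finger factor of epithelial and mesothelial cells. It was at 8.10, 7.81, 4.93 and 6.35 CPM in WT samples 1 to 4 and at 6.95, 12.5, 8.13 and 8.57 CPM in mutants. Mutant sample 2 was again the highest and mutant sample 1 lay inside the WT range. The means were 6.80 ± 1.46 and 9.03 ± 2.38 CPM, and the log2 fold change was 0.41 (SE 0.21, interval -0.06 to 0.88, adjusted p = 0.266). It ranged from 0.22, without mutant sample 2, to 0.51 with a sample left out. The counts behind these values were 60 to 172 per sample, and at such numbers counting error adds to the spread between samples. A pseudogene on the opposite strand, 4833418N17Rik, shares exon bases with *Bnc1* and an antisense gene, Gm10824, lies across *Tcf21*, and use of strand in counting is not given in the sources used here, but they had at most 3.22 and 5 counts in a sample.

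The surface proteins are *Upk3b*, *Upk1b*, *Msln* and *Podxl*. The uroplakins *Upk3b* (chr5:136038496-136046487, plus strand) and *Upk1b* (chr16:38773184-38800328, minus strand) encode membrane proteins known from the bladder lining and from mesothelium, and *Upk1b* is a tetraspanin. *Upk3b* was at 62.2, 60.1, 25.0 and 28.8 CPM in WT samples 1 to 4 and at 47.1, 112, 61.5 and 80.4 CPM in mutants. The WT samples fell into a higher and a lower pair, and mutant sample 1 lay between them. The means were 44.0 ± 19.9 and 75.1 ± 27.9 CPM, with a log2 fold change of 0.77 (SE 0.34, interval 0.02 to 1.53, adjusted p = 0.192). With a sample left out it ranged from 0.53, without mutant sample 2, to 0.98, and did not pass in any of these 8 fits.

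*Upk1b* was at 24.9, 20.5, 14.6 and 16.0 CPM in WT samples 1 to 4 and at 23.2, 35.3, 19.9 and 22.3 CPM in mutants. WT sample 1 was higher than 3 of the mutant samples, and the log2 fold change was 0.41 (SE 0.21, interval -0.06 to 0.87, adjusted p = 0.263). With a sample left out it ranged from 0.21, without mutant sample 2, to 0.56. Of the 6 uroplakin genes listed, only these 2 were high enough to be tested. *Upk1a* averaged 0.359 CPM in mutants and 0.222 in WT, and *Upk2*, *Upk3a* and *Upk3bl*, which build the bladder's plaques or resemble *Upk3b*, had 0 to 2 counts in any sample.

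*Msln* (chr17:25748613-25754378, minus strand) encodes mesothelin, a surface glycoprotein of mesothelium. It had 2, 5, 4 and 4 counts in WT samples 1 to 4 and 14, 10, 5 and 8 counts in mutants, too few to enter the fit. In CPM these were 0.153, 0.358, 0.329 and 0.270 in WT and 1.19, 0.724, 0.360 and 0.659 in mutants. The groups were separated only by the gap between 0.358 and 0.360, both from libraries with 5 counts. The ratio of means was 2.64, and a two-sided exact permutation test of the CPM gave p = 0.0286, the smallest value that 4 samples against 4 allow. This p was not adjusted, and any gene without overlap between genotypes would receive it. Of the genes tested, 9.52% had no overlap with mutants higher. With no filter on low counts, edgeR gave a log2 fold change of 1.35 (SE 0.51, adjusted p = 0.189).

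*Podxl* (chr6:31519488-31563981, minus strand) encodes podocalyxin, a sialylated protein of the outer surface of epicardial, endothelial and kidney podocyte cells and of blood progenitors. It was at 382, 363, 416 and 388 CPM in WT samples 1 to 4 and at 297, 393, 359 and 310 CPM in mutants. Of the mutant samples 3 lay below all WT samples, and mutant sample 2 lay inside the WT range. It was the only marker of the 7 tested with a lower mean in mutants, 340 ± 44.7 against 387 ± 21.7 CPM (log2 fold change -0.19, SE 0.09, interval -0.39 to 0.01, adjusted p = 0.231). For its relative *Cd34* the log2 fold change was -0.10 (adjusted p = 0.571), and *Ezr*, which encodes ezrin, the protein that links podocalyxin to actin, had 0.17 (adjusted p = 0.296). None of the 6 genes listed for podocalyxin, its family and its cytoplasmic partners passed.

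*Krt19* (chr11:100140810-100148665, minus strand) encodes a type I keratin of simple epithelia and mesothelium. It was at 59.5, 63.0, 86.6 and 61.0 CPM in WT samples 1 to 4 and at 289, 122, 91.7 and 84.0 CPM in mutants. Mutant sample 1 was far above the other mutant samples, and WT sample 3 was higher than mutant sample 4, so the groups overlapped at a single pair. The means, 67.5 ± 12.8 and 147 ± 96.3 CPM, gave a 2.17-fold difference (log2 fold change 1.12, SE 0.36, interval 0.31 to 1.92, adjusted p = 0.0872). Without mutant sample 1 the log2 fold change was 0.56 and passed (adjusted p = 0.0291), and over the 8 fits that left out a sample adjusted p ranged from 0.0291 to 0.205. It also passed with edgeR's likelihood ratio test (adjusted p = 0.0232) and with no filter on low counts (adjusted p = 0.0297), within a range of 0.0232 to 0.196 over the 10 other settings. Mutant sample 1 also had the largest share of hemoglobin counts, 6.26%, and the part of this in the level of *Krt19* was not tested.

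Of the 7 markers tested, 6 had a log2 fold change above 0, beside 49.7% of all genes tested, and 3 of them (*Wt1*, *Upk3b* and *Krt19*) had an unadjusted p under 0.05 in that direction, beside 13.1% of all genes. Their median log2 fold change was 0.55, beside 0.00 over all genes tested. The median ranged from 0.28 to 0.62 with a sample left out, the lowest value being that without mutant sample 2. *Tcf21*, *Upk3b*, *Upk1b* and *Bnc1* varied together within genotypes, as described below, so the markers were not counted as independent of each other. Whether the difference in *Wt1* was larger than that in the other markers was not tested.

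**Figure D2:**
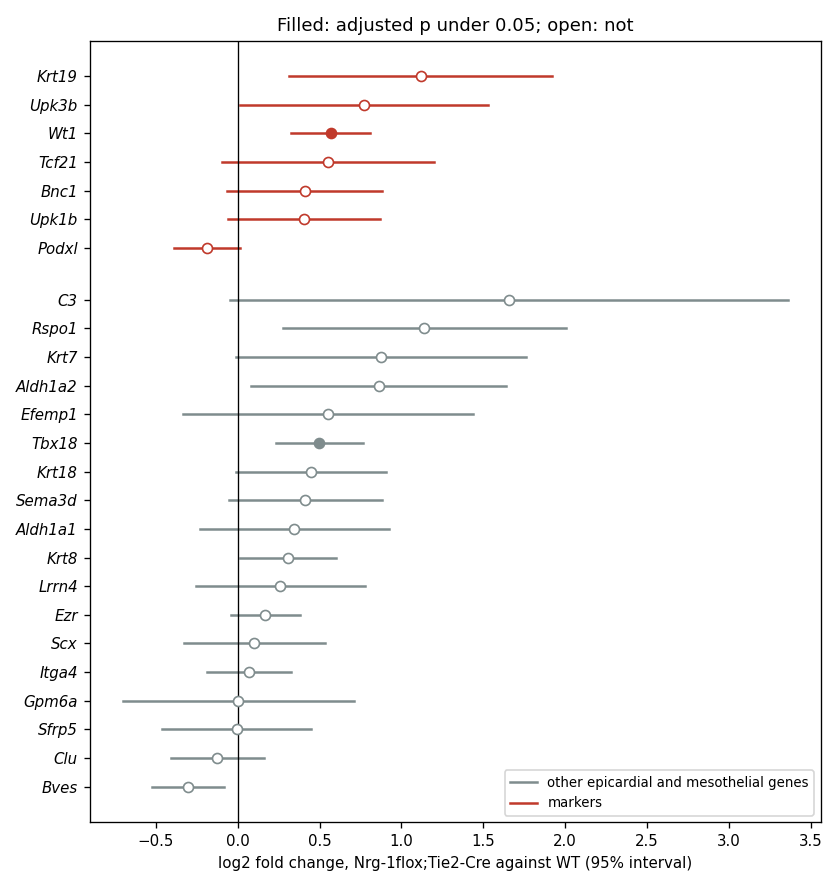
Log2 fold change with its 95% interval for the 7 markers tested (red) and for 18 other epicardial and mesothelial genes (grey), with filled points for an adjusted p under 0.05. *Wt1* (0.57) and *Tbx18* (0.50) are the filled points, and the interval of *Krt19* runs from 0.31 to 1.92.

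The 20 other epicardial and mesothelial genes were described in the same way. *Tbx18* rose in mutants and no other of the 18 that could be tested passed, beside 5.11% of all genes tested that passed as higher. *Tbx18* encodes a T-box factor of the proepicardium and epicardium. It was at 47.2, 42.8, 38.5 and 42.0 CPM in WT samples 1 to 4 and at 62.0, 74.7, 50.3 and 54.0 CPM in mutants (log2 fold change 0.50, SE 0.12, adjusted p = 0.0315). The groups did not overlap, as for 9.52% of all genes tested in that direction. It kept its call under the 10 other settings and lost it when WT sample 1, 2, 3 or 4 was left out, with adjusted p from 0.0588 to 0.0978 in those fits. *Aldh1a2*, which encodes the enzyme that makes retinoic acid in the epicardium, was at 7.94, 10.03, 3.94 and 3.99 CPM in WT and at 9.92, 18.2, 7.70 and 11.2 CPM in mutants (log2 fold change 0.86, adjusted p = 0.160). With a sample left out its log2 fold change ranged from 0.57 to 1.15 and did not pass.

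Like *Upk3b*, *Aldh1a2* was low in WT samples 3 and 4 and highest in mutant sample 2. Of the 18 genes 15 had a log2 fold change above 0, with a median of 0.33, and *Bves*, a membrane protein gene of epicardium and myocardium, was at -0.30 (adjusted p = 0.0892). The 20 genes summed to 593 to 642 CPM in WT and 649 to 795 CPM in mutants, a narrow gap in a sum to which the abundant genes *Ezr*, *Krt8* and *Bves* contribute most. The keratins *Krt7*, *Krt8* and *Krt18*, named after their values were seen, had log2 fold changes of 0.88, 0.31 and 0.45 (adjusted p = 0.206, 0.182 and 0.209). *Krt8* and *Krt18* were highest in mutant sample 1, at 141 and 81.9 CPM, as was *Krt19*.

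Levels between genes were compared per kilobase of annotated exon. In WT, *Podxl* was the highest at 70.5 ± 3.95 CPM per kb (SD, n = 4), followed by *Krt19* at 36.4 ± 6.90 and *Upk3b* at 12.5 ± 5.63. Then came *Upk1b* at 9.10 ± 2.23, *Tcf21* at 6.65 ± 1.69 and *Wt1* at 5.07 ± 0.170 CPM per kb. *Bnc1* was at 1.46 ± 0.314 and *Msln* was the lowest at 0.0906 ± 0.0296 CPM per kb. Among neighbours in this order, the WT ranges of *Upk3b* and *Upk1b*, of *Upk1b* and *Tcf21* and of *Tcf21* and *Wt1* overlapped, and those of the other neighbours did not. In mutants *Krt19* had the highest mean, 79.0 ± 51.9 CPM per kb against 61.9 ± 8.14 for *Podxl*, but this rests on mutant sample 1, at 156 CPM per kb, and *Podxl* was the higher of the pair in the 3 other mutant samples.

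**Figure D3:**
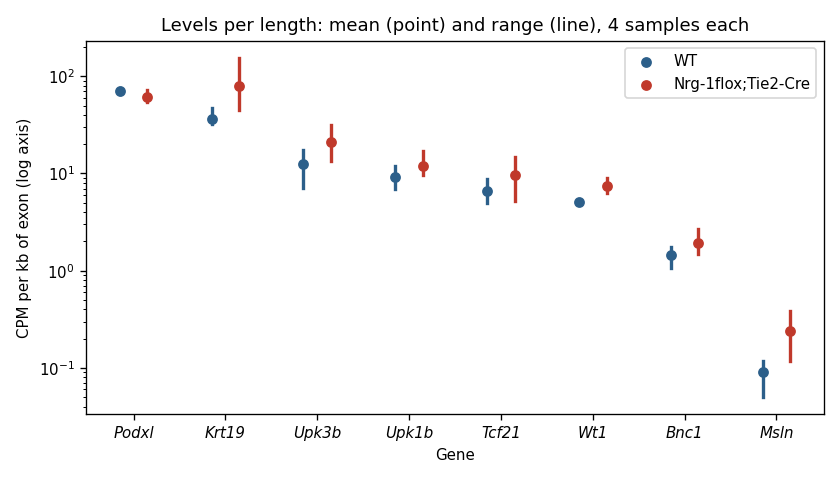
Mean (point) and range (line) of CPM per kilobase of exon on a log axis for the 8 markers in 4 WT and 4 mutant samples. *Podxl* and *Krt19* are at the top, at 70.5 and 36.4 CPM per kb in WT, and *Msln* is at the bottom at 0.0906.

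The markers were then compared over samples after the mean of each genotype had been removed from log2 CPM, so that a shared genotype difference could not make a pair correlate. *Tcf21*, *Upk3b*, *Upk1b* and *Bnc1* varied together within both genotypes, in that the samples high for a gene of the group were mostly high for the others. *Tcf21* deviated from its genotype mean by 0.44, 0.13, -0.18 and -0.39 in WT samples 1 to 4 and by -0.81, 0.71, -0.11 and 0.20 in mutants. *Upk3b* deviated by 0.62, 0.57, -0.69 and -0.49 in WT and by -0.60, 0.64, -0.21 and 0.17 in mutants. In WT, samples 1 and 2 were above and samples 3 and 4 below the mean for each of the 4 genes, and in mutants sample 2 was above and samples 1 and 3 below it.

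**Figure D4:**
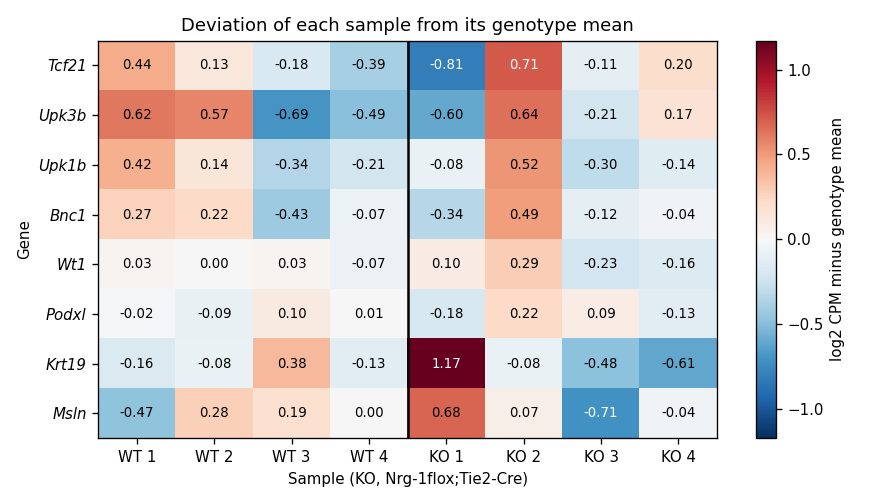
Deviation of each sample from the mean of its genotype in log2 CPM for the 8 markers (rows) in 4 WT and 4 mutant samples (columns, KO being the mutant). The 4 upper rows share their pattern, *Wt1* deviates little in WT, and *Krt19* in mutant sample 1 is at 1.17.

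Over 28 pairs of markers and 8 samples, the median Pearson r was 0.31, with a range from -0.63 to 0.93. A pair of *Upk3b* and *Bnc1* had r = 0.933 and Spearman's rho = 0.976, each with a two-sided exact permutation p of 0.0017, which is the smallest that rearranging samples within genotype can give (adjusted over the 28 pairs, p = 0.0486). Without the 2 samples farthest from the median of *Upk3b*, WT sample 3 and mutant sample 2, r was 0.974. No other pair passed after adjustment. Of the 28 pairs 5 had r of at least 0.8, and all 5 were among the 4 genes named above. By Spearman's rho 7 pairs reached 0.8, and not all were among these genes. *Wt1* and *Krt19* had rho = 0.833 (exact permutation p = 0.132, adjusted p = 0.462) with r = 0.505. *Krt19* and *Msln* had rho = 0.857 (exact permutation p = 0.0226, adjusted p = 0.126).

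These 4 genes were grouped after their values were seen, so the following is a description with no test. Their 6 pairs had r from 0.718 to 0.933, rho from 0.643 to 0.976 and, without the 2 samples farthest from the median of the first gene, r from 0.685 to 0.974. Over all 28 pairs of the 8 markers, the number with r of at least 0.8 was 4 to 7 with each sample left out, and the 7 without mutant sample 1 include at least 1 pair outside this group. *Wt1* had r from 0.288 to 0.690 with the 4 genes, which became -0.493 to 0.209 without mutant samples 2 and 3. *Podxl* had r from 0.138 to 0.512 with them, *Krt19* from -0.625 to -0.0657 and *Msln* from -0.438 to -0.0244. Without the 2 farthest samples of each pair these became -0.832 to 0.132, -0.468 to 0.109 and -0.318 to 0.489. For *Krt19* and *Msln* the sign turned only with *Upk1b*, and for *Podxl* it turned with each of the 4 genes but *Bnc1*. *Krt19* and *Msln* had r = 0.764 with each other (exact permutation p = 0.092, adjusted p = 0.322), and both were highest in mutant sample 1.

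**Figure D5:**
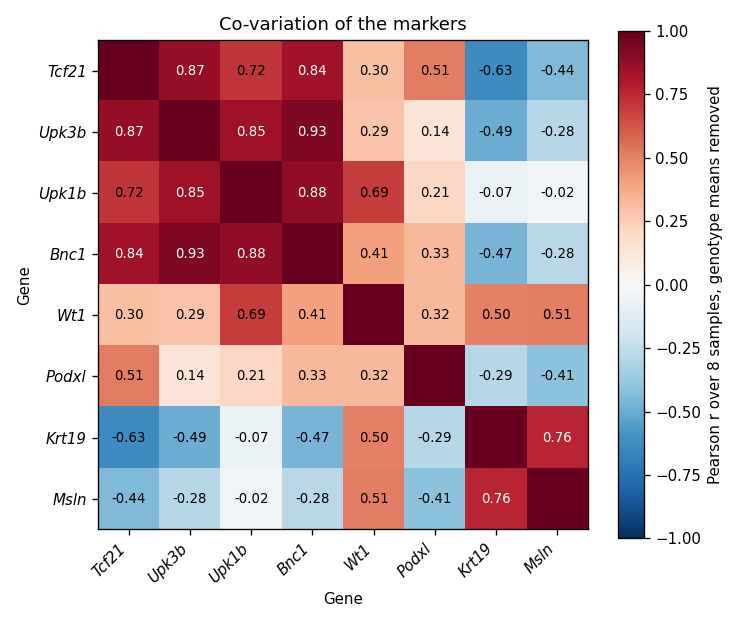
Pearson r between markers over 8 samples with genotype means removed, from -1 (blue) to 1 (red). The block of *Tcf21*, *Upk3b*, *Upk1b* and *Bnc1* runs from 0.72 to 0.93, and *Krt19* is below 0 with each of these 4 genes.

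Genes outside the markers were ranked by r with the mean of the standardised deviations of the 7 markers tested, again over 8 samples. This mean was at 1.303 in mutant sample 2, between -0.39 and -0.50 in the other mutant samples, and at 0.56, 0.23, -0.33 and -0.45 in WT samples 1 to 4, so it rests largely on mutant sample 2. The most similar genes were *Cbr4* (r = 0.987), *Plagl1* (0.987), Gm26660 (0.986), *Marcks* (0.981) and Gm37397 (0.978), none of which passed the test of genotype. In all, 240 of the 14451 genes tested, or 1.66%, had r of at least 0.8. This count includes *Upk1b* (0.941) and *Bnc1* (0.863), markers that are part of the mean. Among the other epicardial genes these were 5 of 18, *Sema3d* (0.900), *Aldh1a1* (0.897), *Tbx18* (0.876), *Ezr* (0.839) and *Aldh1a2* (0.827), and the median r of the 18 was 0.62 beside 0.00 over all genes. The median r was 0.56 for 6 sinus venosus and atrial genes, 0.38 for 14 genes of epicardium-derived mesenchyme (of which 14.3% reached 0.8) and -0.75 for 9 erythroid genes. Genes of the Y chromosome, which differ with the sex of the embryos, summed to 60.0, 21.9, 32.4 and 95.8 CPM in WT samples 1 to 4 and to 109, 20.6, 113 and 112 CPM in mutants, so that mutant sample 2, the highest for the markers, was the lowest for these. It also had the lowest hemoglobin share of the mutants, 1.93%, and the highest sum of sinus venosus and atrial genes of all samples, 303 CPM. The part of sex, of blood or of venous pole tissue in the co-variation was not tested, and *Wt1* passed with Y-linked expression as a covariate.

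Markers of the tissues next to the epicardium were described beside these results. Of 11 genes listed for the septum transversum, the mesenchyme on which the proepicardium sits, *Hlx* passed as higher, and *Mab21l2* and *Alcam* as lower. Over all genes tested, 5.11% passed as higher and 3.5% as lower. *Hlx*, a homeobox gene, was at 0.458, 0.287, 0.904 and 0.406 CPM in WT and at 5.85, 1.52, 1.51 and 1.32 CPM in mutants, highest in mutant sample 1 (log2 fold change 2.30, adjusted p = 0.0421, and 1.51 without that sample). Its counts were only 6, 4, 11 and 6 in WT and 69, 21, 21 and 16 in mutants. Mutant sample 1 also had the largest hemoglobin share, and the part of blood in the level of *Hlx* was not tested. *Mab21l2*, which the proepicardium needs to form, was at 24.6, 25.4, 23.1 and 23.6 CPM in WT and at 10.5, 13.7, 19.9 and 16.7 CPM in mutants (log2 fold change -0.67, adjusted p = 0.0342), with no overlap, as for 9.45% of all genes tested in that direction. For *Alcam*, a cell adhesion gene also expressed by the myocardium, the log2 fold change was -0.26 (adjusted p = 0.0130). *Hlx* lost its call without mutant sample 3 or 4 or any WT sample (adjusted p up to 0.122 in these fits), *Mab21l2* without mutant sample 2 or 4 or any WT sample (up to 0.0973), and *Alcam* without WT sample 1 (0.0546). *Hlx* also lost it with limma-voom (0.0612) and with the covariate of Y-linked genes (0.125), and *Mab21l2* with that covariate (0.0783). The 11 genes summed to 611 to 642 CPM in WT and 480 to 608 CPM in mutants, a sum to which *Alcam*, *Vcam1* and *Hand2* contribute most.

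Among 14 genes of the transition to epicardium-derived mesenchyme, only *Tbx20* passed, as lower (log2 fold change -0.31, adjusted p = 0.0165), beside 3.5% of all genes tested. *Tbx20* is a T-box gene of the myocardium and endocardium as well, and it lost its call without WT sample 1, 3 or 4 (adjusted p up to 0.0591) and with the covariate of Y-linked genes (0.0512). The list's median was -0.08, and *Vim*, the mesenchymal filament gene with the highest level in the list, was at -0.01. *Col1a1*, a collagen gene named after its values were seen, had the opposite sign, at 102, 79.3, 66.8 and 52.6 CPM in WT samples 1 to 4 and 110, 127, 84.8 and 136 CPM in mutants, and did not pass (log2 fold change 0.61, adjusted p = 0.0938).

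Markers of other epithelia that can express the same genes varied between samples. Of 10 genes of foregut endoderm and surface epithelium none was high enough to be tested, and they summed to 1.36 to 9.62 CPM in WT and 0.933 to 2.53 in mutants. *Epcam* had 4 to 33 counts and *Cdh1* 0 to 19, both epithelial adhesion genes, and WT sample 3, the highest WT sample for *Krt19*, had the 33 counts of *Epcam*. The podocyte gene *Nphs1* had 10, 13, 2 and 5 counts in WT and 7, 39, 15 and 11 in mutants (log2 fold change 1.29, adjusted p = 0.204, and 0.65 without mutant sample 2). Of the liver and yolk sac genes, *Alb* had 0 to 4 counts, and *Afp* had 1, 4, 4 and 2 in WT and 63, 32, 2 and 0 in mutants. *Hhex*, of the same list and also an endothelial gene, had 60 to 163 counts, the most in mutant sample 1. Mutant sample 1, the highest for *Krt19* and *Msln*, thus also had the most *Afp* counts, and the part of these cells in the levels of the markers was not tested.

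For *Podxl*, endothelium and blood progenitors are the other known sources. The 10 endothelial and endocardial genes summed to 942 to 1026 CPM in WT and 819 to 948 in mutants, and *Tek*, the angiopoietin receptor gene whose promoter drives the Cre, passed as lower (log2 fold change -0.34, adjusted p = 0.0310), a call lost without mutant sample 3 or 4 or any WT sample (adjusted p up to 0.107) and with the covariate of Y-linked genes (0.0900). *Kdr* had -0.38 (adjusted p = 0.0681), *Cdh5* -0.14 (0.169), *Pecam1* -0.01 (0.981), *Emcn* 0.17 (0.324) and *Egfl7* 0.19 (0.207), the last 3 named after their values were seen. *Kdr* passed as lower in 3 of the 10 other settings and in 1 of the 8 fits that left out a sample (adjusted p = 0.00162). The median of the 10 was -0.09, and 3 of them were above 0. Only *Tek* of the 10 passed, beside 3.5% of all genes tested that passed as lower. Of 8 blood progenitor and megakaryocyte genes, *Gfi1b* (log2 fold change 2.10), *Gp9* (1.57) and *Itga2b* (1.15, or 0.69 without mutant sample 1) passed as higher, and all 9 erythroid genes tested passed as higher with a median of 2.44. The calls of *Gp9* and *Itga2b* were lost without mutant sample 3 or 4 or any WT sample (adjusted p up to 0.113 and 0.139), with limma-voom (0.0574 and 0.0714) and with the covariate of Y-linked genes (0.128 and 0.152). Cardiomyocyte genes had none of 12 passing and a median of -0.06. With DESeq2 2 of them passed as lower, and without mutant sample 1 2 passed as higher and 1 as lower. With hemoglobin and mitochondrial genes taken out before scaling, the median of the markers was 0.56 and *Wt1* passed.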

How the data were processed

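The authors deposited 1 table of expected counts per gene, estimated with RSEM 1.3.1 on GRCm38 after trimming with cutadapt, per the submitters' processing notes. Libraries of polyadenylated RNA were made with the NEBNext Ultra kit. The aligner and the use of strand are not given in the sources used here. The counts are not scaled for library size or gene length, and a gene-name table supplied symbols for 53274 of 53465 genes. Here they were rounded to whole numbers, filtered with filterByExpr, normalized by TMM and tested with edgeR 4.0.16 in R 4.3.3 (glmQLFit and glmQLFTest, genotype as the only term, Benjamini-Hochberg adjustment over 14451 genes, threshold 0.05). *Msln* did not pass the filter. CPM are TMM-normalized, and log2 CPM used a prior count of 2. Standard errors were derived from the F statistic. Exon lengths and positions came from GENCODE M21 (GRCm38).

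The markers and the other gene lists were chosen with earlier results of these data known. The genes named were all markers, *Nrg1*, up to 4 genes per other list that passed with the largest change, or else its 2 most abundant genes, 8 defining markers of tissues, the 5 genes most similar in pattern, and genes overlapping a marker; some of these are given here only as counts, and 1 is not reported here. Co-variation was tested by exact permutation within genotype. Between replicates the chi-square of the counts was never below 3.59 per degree of freedom, above sampling noise, and each sample was counted once. As alternatives, the likelihood ratio test of edgeR, voom in limma 3.58.1, DESeq2 1.42.0, 3 other scalings, 2 other filters on low counts, a term for Y-linked expression and a block for the replicate number were tried, and each sample was left out.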

Additional observations from a re-analysis of the deposited data

Results flagged for a closer look

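*Krt19* in WT had a sample that stood apart from the others. WT sample 3 was at 86.6 CPM, while the other WT samples were at 59.5, 61.0 and 63.0, and its gap to the nearest of them was 0.87 of the whole WT range, above Dixon's 95% critical value for 4 samples. This was 1 of 18 groups of samples examined, for the 8 markers and *Nrg1* in both genotypes, and chance gives about 1 such group in 20. The same library had 33 counts of *Epcam*, the most of any sample, and 18 counts of *Shh*, which was at 0 in every other library and was named after its values were seen. The part of these transcripts in the level of *Krt19* was not tested.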

How the results depend on the processing

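Of the markers, 1 passed in the fit reported, 2 with edgeR's likelihood ratio test, 2 with no filter on low counts, and 1 under each of the 8 other settings, *Krt19* being the addition. Leaving out each sample gave 1 to 3, with 3 only without mutant sample 1. The count of all genes changed, 1245, fell to 616 with the replicate number as a block and to 604 with the covariate of Y-linked genes, and ranged from 509 (without WT sample 1) to 2523 (without mutant sample 1) with a sample left out. It was 652 without mutant sample 4, 784 without mutant sample 3, and 700, 592 and 569 without WT sample 2, 3 and 4. The cause was not tested. Samples with the same number did not deviate together (mean r -0.02 over genes, from -0.09 to 0.02), so the numbers were not read as pairs. With the block *Wt1* passed and no other marker did, and *Hlx*, *Mab21l2*, *Tek*, *Gp9* and *Itga2b* lost their calls (adjusted p from 0.0630 to 0.111). Log2 fold changes that did not pass turned sign for 3 named genes: *Vim*, -0.01 as reported, was 0.000696 without hemoglobin and mitochondrial genes and -0.0463 to 0.0233 with a sample left out, *Hhex*, 0.31 as reported, was -0.106 (without mutant sample 1) to 0.470, and *Myh7*, 0.09 as reported, -0.0220 to 0.187. Under the 10 settings that kept all samples, 374 of 400 log2 fold changes of 41 named genes kept their direction and side of the threshold, 14 lost their call, 11 gained it and 1 turned. At 2 to 14 counts, *Msln* is limited by depth.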
